A study of Mus musculus with 8 samples.

Results

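Imprinted genes are expressed mainly from the chromosome inherited from 1 parent, and 34 of them were followed in the embryonic palate of mice. They were chosen by symbol from known mouse imprinted genes, and all 34 were found among the 55536 genes of the table. All 34 also passed the filter on low values, which asked 4 or more of the 8 libraries to reach 10 normalised counts, as did 16647 genes in all. RNA came from the posterior palatal shelves, epithelium and mesenchyme together, of E14.5 embryos whose shelves had not yet elevated. The 4 mutant libraries were Yapfl/fl;Tazfl/fl;Col2Cre, in which a Cre transgene driven by regulatory sequence of the cartilage collagen gene Col2a1 is added to floxed Yap and Taz alleles. The 4 control libraries were Yapfl/fl;Tazfl/fl, with the same floxed alleles and no Cre. Cells of the shelf that never express the transgene keep both genes. Nothing in the labels says that the libraries came from separate embryos, so a p-value here covers only the spread from library to library. The comparison asks how RNA in the posterior shelf differs when embryos with floxed Yap and Taz also carry Col2Cre.

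Imprinted genes sit in clusters that share a differentially methylated control region, and a long non-coding RNA transcribed from 1 parental chromosome often silences its protein-coding neighbours. Many of the paternally expressed members, such as Igf2, Dlk1, Peg3, Mest and Plagl1, favour growth of the embryo, whereas maternally expressed members such as Cdkn1c, Igf2r, Grb10 and Phlda2 restrain it. YAP and TAZ are co-activators of the Hippo pathway that reach DNA through TEAD factors, and they too act on tissue growth. The counts add the RNA of both parental alleles, so they show how much of each gene was present and not which allele made it. In bulk tissue, fewer cells of a type and less RNA per cell cannot be told apart.

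The libraries held 29025089 to 32437977 reads. Yap1 lay at 8221 to 8745 normalised counts (reads divided by 1 size factor per library) in mutants and 9095 to 10086 in controls, with no overlap, and Wwtr1, the gene for TAZ, at 3649.9 to 4574 in mutants and 4449 to 5305 in controls. Their log2 differences were -0.18 (SE 0.0520) and -0.29 (SE 0.0773), and each had an adjusted p of 0.751 by limma. Whole-gene counts cannot single out the floxed exons. The shelf mesenchyme marker Prrx1 averaged 12384 ± 3919 counts in mutants and 13904 ± 3287 in controls (SD, n = 4 each), so RNA of the labelled tissue was present in both groups. Several marker lists had unequal means. All 9 tested osteoblast markers had lower means in mutants, Bglap being at 0 in every library. Their summed counts were 8218 to 24645 in mutants and 23849 to 46272 in controls. For 9 of 10 chondrocyte markers the log2 difference was below 0. Endothelial markers had lower means in mutants for 8 of 10, with sums of 14176 to 18535 in mutants and 18467 to 20034 in controls. Means were higher in mutants for all 12 epithelial markers, 7 of 8 erythroid markers and 7 of 8 Schwann cell and glia markers. Over all marker lists, the groups did not overlap for osteoblast Ibsp and endothelial Pecam1 and Emcn, lower in mutants, and glial Foxd3, higher. Of all genes, 1.91% had no overlap with mutants lower and 1.86% with mutants higher. Skeletal muscle, neuron, macrophage and palatal mesenchyme markers went both ways. None of the markers passed the test, and their part in the values of the imprinted genes was not tested. Gm42418, a predicted gene lying over a ribosomal RNA repeat, took 2.08% of reads in mutants and 5.10% in controls (log2 difference -1.38, SE 0.162, adjusted p = 0.0156 by limma), and it enters every share of total reads given below.

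Imprinted RNAs were a visible part of the shelf transcriptome. The 34 genes together took 2.729% to 2.984% of reads in mutant libraries and 2.696% to 2.924% in control libraries. H19, a maternally expressed non-coding RNA, alone took 1.16% to 1.27% in mutants and 1.18% to 1.33% in controls, and it ranked second of all genes tested by counts per kilobase of exon. On that per-length scale Cdkn1c ranked 13th, Mest 45th, Igf2 46th, Nnat 60th and Dlk1 64th of the 16647 genes. Levels per kilobase in mutants and controls were 148353 and 162382 for H19, 25993 and 28972 for Cdkn1c, and 10468 and 11697 for Igf2. Mest stood at 11423 in mutants and 11667 in controls, within its spread of Igf2, so these neighbours in the order were not separated. H19 and Cdkn1c led in both groups. At the other end, Ascl2, which encodes a transcription factor of the placenta, stood at 14.2 in mutants and 12.3 in controls. Kcnq1ot1 was lowest at 4.27 in mutants and 5.34 in controls, over an unspliced model of 93092 bases in GENCODE M21 that is longer than the span in the deposited table.

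None of the 34 genes passed the test. limma on log2(normalised count + 1), adjusted over all genes, called 0 of 34 members at an adjusted p under 0.05, and 4 of 16647 genes overall (0.024%). Unadjusted, 5 of 34 members had a p under 0.05, namely Igf2, Airn, Cdkn1c, Zim1 and Peg3, all lower in mutants, beside 6.57% of all genes. That count was 1 with libraries scaled to total reads, and 2 with Gm42418 left out of the totals. edgeR and DESeq2 on recovered reads also called 0 members. The groups did not overlap, with mutants lower, for 1 member of 34, Igf2, beside 1.91% of all genes, and for 0 members with mutants higher, beside 1.86% of all genes. Mean counts were lower in mutants for 23 members and higher for 11, with a median log2 difference of -0.05, while the median of all genes was near 0. That split depends on scaling. With libraries scaled to total reads, 13 members were lower and 21 higher, the median of all genes moving to 0.08. Leaving Gm42418 out of the totals gave 21 lower and 13 higher. Among libraries whose titles begin with the same number, 2057 (1 mutant, 2 controls) or 3602 (2 mutants, 1 control), 16 of 34 members had the sign of the pooled difference within both numbers, 13 of them lower and 3 higher. The differences were small in size: the median absolute log2 difference of the members was 0.083, and that of all genes tested was 0.11. Those sets differ in level. At a mean of at least 1000 counts, the median was 0.059 for 23 members and 0.063 for all 6726 genes.

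**Figure D1:**
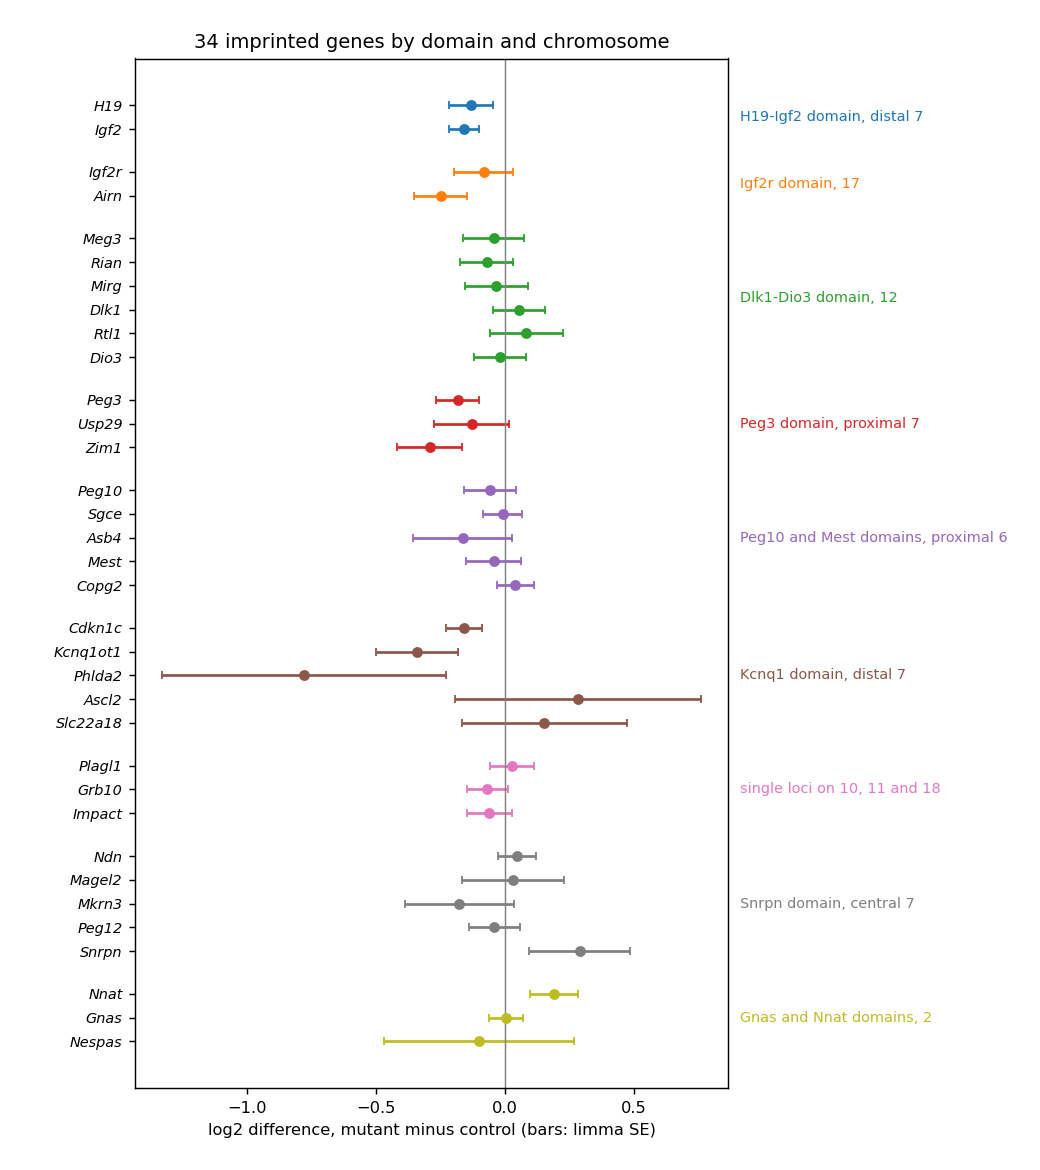
Log2 difference, mutant minus control, of the 34 imprinted genes, grouped by domain and chromosome, with bars for the limma standard error. Most points lie within about 1 standard error of 0, the H19-Igf2 and Peg3 domains lie to the left, and the widest bars belong to low-count genes such as Phlda2.

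Igf2 showed the clearest separation between the groups. It encodes insulin-like growth factor 2, a paternally expressed growth factor of embryo and placenta (ENSMUSG00000048583, GRCm38 chromosome 7 from 142650766 to 142666816, minus strand). Mutant libraries 1 to 4 had 57065, 60510.4, 62898 and 59165 normalised counts, and control libraries 1 to 4 had 64781, 69718, 67781 and 65481. The highest mutant library lay below the lowest control library. The means were 59909.5 ± 2445 in mutants and 66940.1 ± 2252 in controls (SD, n = 4 each), so mutants held 89.5% of the control level. The log2 difference was -0.16 (SE 0.0583), with an unadjusted p of 0.0179 and an adjusted p of 0.754 by limma. By exact permutation of the 8 libraries, two-sided, p was 0.0286, the smallest value that 4 libraries against 4 can give. As a share of all reads, Igf2 stood at 0.191% to 0.208% in mutants, against 0.2096% to 0.2202% in controls, again with no overlap, and the log2 difference was -0.084 on that scale. It was -0.19 among 2057 libraries and -0.14 among 3602 libraries.

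Igf2 has several promoters, and 1 of them is shown because 3 of the 4 windows around its RefSeq starts hold GGAATG, the core of the TEAD motif, on either strand. RefSeq promoter windows (250 bases before to 50 after a start, GRCm38.p6) were found for 27 members, in 41 windows. GGAATG occurred in 7 of those 27 genes (25.93%), beside 16.58% of all genes with a window. By window it occurred in 21.95% of member windows, beside 14.66% of all windows. Peg3 and Usp29, counted as 2 of the 7 genes, have windows that overlap by 263 bases and hold the same match. The 250 bases before the most downstream of the 4 RefSeq starts (chr7:142657497-142657746, minus strand) are given with each searched motif in capitals.
Igf2: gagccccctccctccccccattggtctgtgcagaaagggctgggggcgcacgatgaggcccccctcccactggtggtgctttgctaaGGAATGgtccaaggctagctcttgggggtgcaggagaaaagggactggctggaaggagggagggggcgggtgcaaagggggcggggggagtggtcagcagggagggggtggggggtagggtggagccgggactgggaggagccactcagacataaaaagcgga
A match of letters is a description and not a bound site. The other motifs searched, on both strands, were TGCCGC, which the imprint guardian ZFP57 recognises when methylated, AAGATGG, the core of the YY1 motif, and TATAAA, the TATA box. TGCCGC was found in 9 of 27 members (33.33%, beside 13.05% of all genes), TATAAA in 7 of 27 (25.93%, beside 15.67%) and AAGATGG in 0 of 27 (beside 7.278%). By window, TGCCGC stood at 24.39% in members beside 11.61% in all, and TATAAA at 21.95% beside 13.62%. Member windows held a median of 13 CpG pairs, against 7 in all windows.

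H19 lies 72622 bases from Igf2, is transcribed from the maternal chromosome, and shares enhancers with Igf2 (ENSMUSG00000000031, chromosome 7 from 142575529 to 142578143, minus strand). It had 345412, 366175, 385082 and 363126 normalised counts in mutants, against 407497, 397982, 378273 and 414088 in controls. The groups overlapped only because mutant 3 lay above control 3. The means were 364949 ± 16247 in mutants and 399460 ± 15595 in controls (SD, n = 4 each), a log2 difference of -0.13 (SE 0.0859) with an adjusted p of 0.805 by limma. It was -0.16 among 2057 libraries and -0.01 among 3602 libraries. The first exon of H19 carries the hairpin of miR-675, a microRNA pair cut from the transcript, at chr7:142577112-142577133 and chr7:142577078-142577099 on the minus strand (RefSeq, GRCm38.p6). They are shown, seed (bases 2 to 8) in capitals, because the most abundant imprinted RNA here is their precursor.
mmu-miR-675-5p: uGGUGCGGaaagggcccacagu
mmu-miR-675-3p: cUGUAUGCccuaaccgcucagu
The pair does not share a seed. Mir675, counted as a gene of its own, stood at 0 in all 8 libraries beside the H19 counts above. It shares exon bases with H19 on the same strand, and the sources used do not say how shared reads were assigned. Its 0 therefore sets no upper bound on reads over the hairpin. Of 13 microRNA genes inside imprinted members, 0 passed the filter and 6 stood at 0 in all libraries. These libraries therefore give the host transcripts and no level of the mature microRNAs.

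**Figure D2:**
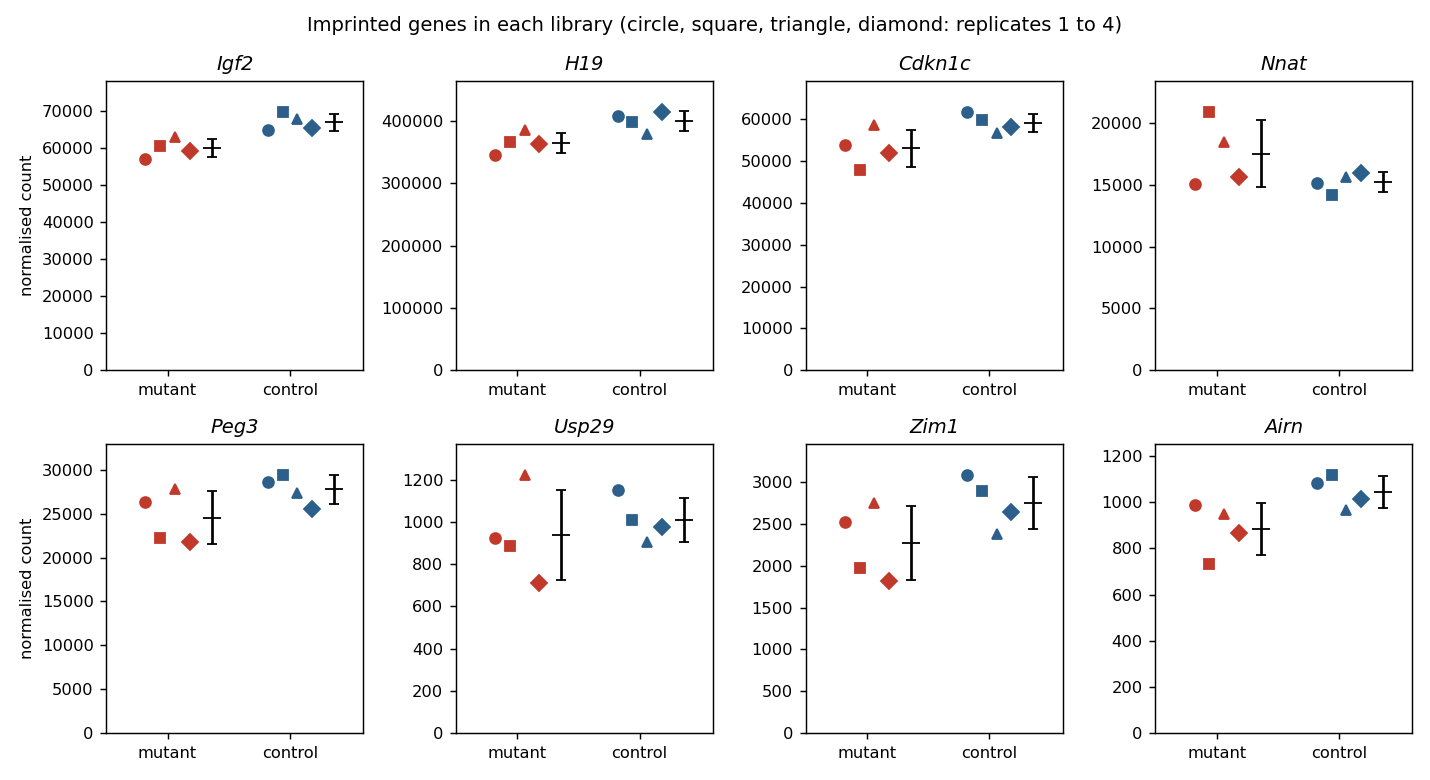
Normalised counts of 8 imprinted genes in each library, mutants left and controls right, with 1 marker shape per replicate number and the mean with its SD as a black bar. Igf2 is the panel without overlap, and the mutant points of Peg3, Usp29 and Zim1 spread more widely than the control points.

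In the neighbouring Kcnq1 domain of distal chromosome 7, the growth restrainer Cdkn1c was the abundant member. Cdkn1c encodes p57KIP2, an inhibitor of cyclin-dependent kinases that lets cells leave the cycle (chromosome 7 from 143458339 to 143461050). It had 53739.9, 47754, 58631 and 51873 counts in mutants, against 61717, 59742, 56709 and 58131 in controls. Mutant 3 lay inside the control range, and the other 3 mutants lay below it. The means were 52999.5 ± 4511 in mutants and 59075 ± 2154 in controls, a log2 difference of -0.16 (SE 0.0694, adjusted p = 0.754 by limma), with -0.18 among 2057 and -0.10 among 3602 libraries. Of the exon bases of Cdkn1c, 30.65% are shared with opposite-strand Gm44732, which averaged 424 counts in mutants and 429.8 in controls.

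Kcnq1ot1, the paternally expressed RNA that silences this domain in cis, had 317, 524, 369 and 378 counts in mutants, against 424, 518, 484 and 561 in controls. Only mutant 2 reached the control range, where it lay above controls 1, 2 and 3. The log2 difference was -0.34 (SE 0.160, adjusted p = 0.754 by limma). Phlda2, which limits growth of the placenta, was counted at low levels, with 92.4, 13.3, 41.5 and 72.8 counts in mutants, against 126.7, 94.7, 51.3 and 56 in controls. Its log2 difference was -0.78 (SE 0.550), the largest in size of the 34, and -0.23 without mutant replicate 2. Ascl2 and the transporter gene Slc22a18 averaged 23.1 ± 4.04 and 56.9 ± 12.2 counts in mutants, against 19.98 ± 8.17 and 51.4 ± 13.6 in controls.

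Peg3, Usp29 and Zim1 of proximal chromosome 7 all had lower means in mutants. Peg3 encodes a zinc finger protein with roles in growth and maternal behaviour, Usp29 a ubiquitin-specific protease, and Zim1 a maternally expressed zinc finger protein. Peg3 (chromosome 7 from 6703892 to 6730431) had 26358, 22277, 27831 and 21826 counts in mutants, against 28677, 29466, 27388 and 25603 in controls. Mutants 2 and 4 lay below every control, and mutants 1 and 3 lay within the control range. The means were 24573 ± 2979 in mutants and 27783 ± 1687 in controls, a log2 difference of -0.18 (SE 0.0833, adjusted p = 0.754 by limma). It was -0.33 among 2057 libraries and -0.14 among 3602 libraries.

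Zim1 had 2525, 1972, 2757 and 1825 counts in mutants, against 3091, 2891, 2384 and 2645 in controls. Mutants 2 and 4 again lay below every control. Its log2 difference was -0.29 (SE 0.127, adjusted p = 0.754 by limma). Usp29 had 925, 889, 1224 and 710.0 counts in mutants, against 1150.0, 1007, 905 and 975 in controls, and its groups overlapped with mutant 3 as the highest of all libraries. The log2 difference of Usp29 was -0.13 (SE 0.144), but -0.0049 without mutant replicate 4 and -0.27 without mutant replicate 3. That of Zim1 was -0.19 without mutant replicate 4. Among 2057 libraries the differences of Zim1 and Usp29 were -0.60 and -0.48, and among 3602 libraries they were -0.03 and 0.20.

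Peg3 and Usp29 start 146 bases apart and run in opposite directions from a shared promoter. The stretch between them (chr7:6730432-6730577, GRCm38.p6, shown on the strand of Peg3) is given because both genes start from it, with the GGAATG match in capitals.
Peg3-Usp29: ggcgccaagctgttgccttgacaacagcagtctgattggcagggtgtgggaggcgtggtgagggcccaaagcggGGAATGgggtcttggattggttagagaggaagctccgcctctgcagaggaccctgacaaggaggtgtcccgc
The levels of the pair were correlated before adjustment and did not pass after it. Over the 8 libraries Pearson's r of the log2 values was 0.77 (exact permutation p = 0.0225, adjusted p = 0.107 over 9 neighbour pairs) and Spearman's rho was 0.81 (exact permutation p = 0.0218, adjusted p = 0.196). On deviations from the group means, r was 0.79. Without mutants 2 and 4, the libraries farthest from the median of Peg3, r was 0.45 (exact permutation p = 0.364, n = 6). Leaving them out also narrows the range of Peg3, so this cannot decide whether the relation rests on those libraries.

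Of the other pairs, Meg3 and Rian gave r = 0.75 (exact permutation p = 0.0355, adjusted p = 0.107, rho = 0.64 with p = 0.0962), and r = 0.44 without mutant 4 and control 3. H19 and Igf2 were also correlated over the 8 libraries (exact permutation p = 0.0258, adjusted p = 0.107), but the groups stood apart in Igf2, so that value mixes the group difference with the relation within groups. On deviations from the group means the pair gave r = 0.33 (exact permutation p = 0.418, n = 8). Sgce and Peg10, which also start back to back, 98 bases apart, gave r = 0.12 (exact permutation p = 0.804, adjusted p = 0.919). The remaining 5 pairs had r between -0.12 and 0.33, and 0 of 9 passed the adjusted threshold.

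**Figure D3:**
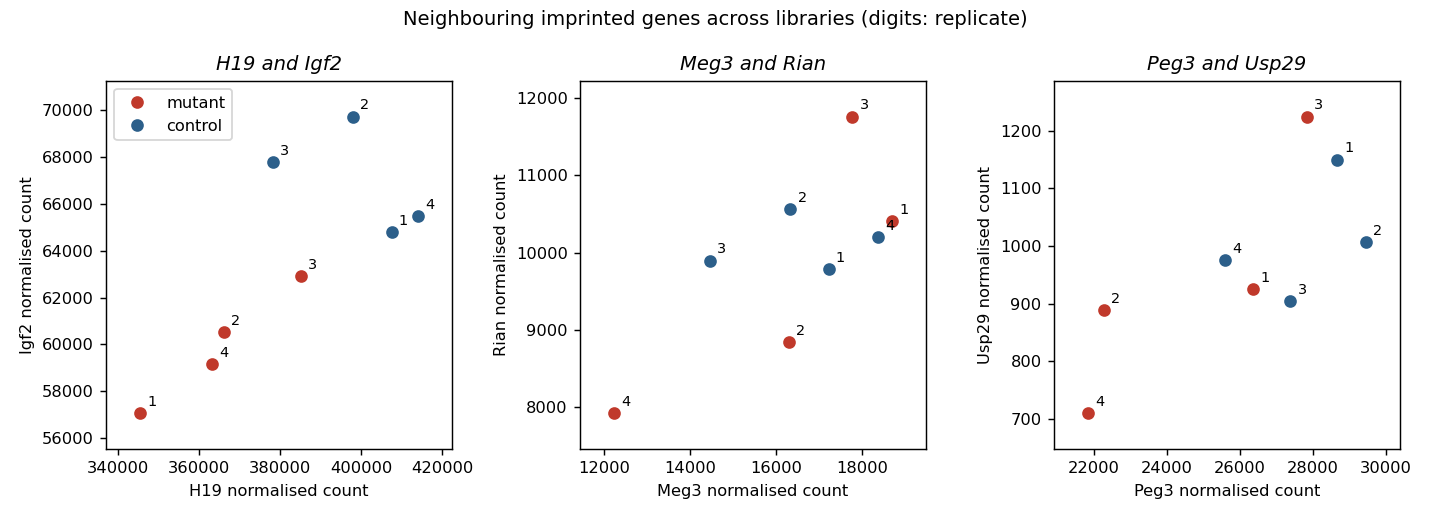
Normalised counts of 3 pairs of neighbouring imprinted genes, 1 point per library (red mutants, blue controls, digits for the replicate). Mutant 4 has the lowest values of both genes in the Meg3-Rian and Peg3-Usp29 panels, and the groups separate along the Igf2 axis.

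In the Igf2r domain of chromosome 17, Igf2r encodes the receptor that clears IGF2 from the cell surface, and Airn is the paternally expressed RNA that overlaps its promoter and silences it. Airn had 989.9, 731.6, 948 and 865 counts in mutants, against 1083, 1119.7, 966 and 1012.5 in controls. Only mutant 1 reached the control range, and it lay above control 3 alone. The means were 884 ± 114 in mutants and 1045 ± 68.9 in controls, a log2 difference of -0.25 (SE 0.104, adjusted p = 0.754 by limma). Igf2r averaged 11770.5 ± 1937 counts in mutants and 12419 ± 1639 in controls, a log2 difference of -0.08 (SE 0.114). Within the title numbers Igf2r was lower by more, at -0.25 among 2057 libraries and -0.24 among 3602 libraries, and with the number as a replicate block it was -0.25 (SE 0.0993). Without control replicate 3 it was 0.0056. Airn was -0.30 among 2057 and -0.21 among 3602 libraries, and -0.16 without mutant replicate 2. The 7 non-coding members, H19, Airn, Meg3, Rian, Mirg, Kcnq1ot1 and Nespas, each had a lower mean in mutants (median log2 difference -0.10). Of these, 1, Airn, had an unadjusted p under 0.05 by limma, beside 6.57% of all genes. With libraries scaled to total reads, Meg3, Rian and Mirg turned to the higher side.

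The Dlk1-Dio3 domain of chromosome 12 gave values on both sides of 0. Dlk1, a transmembrane protein related to Notch ligands that holds back differentiation of fat and muscle precursors, had 45383, 57446, 54239 and 40095 counts in mutants, against 45362, 47602, 50285 and 44737 in controls. The mutant libraries lay on both sides of the controls, with mutants 2 and 3 above and mutant 4 below all of them. Its log2 difference was 0.06 (SE 0.102), with -0.20 among 2057 and 0.15 among 3602 libraries. Meg3, the maternally expressed non-coding RNA of the domain, had 18692, 16284, 17769 and 12226 counts in mutants, against 17214, 16328, 14452 and 18369 in controls, and mutant 4 was its lowest library of all. Its log2 difference was -0.04 (SE 0.119), with -0.50 among 2057 libraries and 0.24 among 3602 libraries. Rian and Mirg, which host small nucleolar RNAs and microRNAs, had log2 differences of -0.07 and -0.03, and Dio3, which inactivates thyroid hormone, of -0.02.

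Rtl1, a retrotransposon-derived gene needed for placenta and fetal muscle, averaged 646 ± 111 counts in mutants and 607 ± 78.9 in controls (log2 difference 0.08, SE 0.141). Rtl1 is read from the paternal chromosome, while microRNAs from the opposite strand of the maternal chromosome match it base for base. For miR-127-3p, the single annotated Rtl1 transcript held the complete reverse complement, and the pair is shown with the seed and its partner in capitals (chr12:109592888-109592909, GRCm38.p6).
mmu-miR-127-3p: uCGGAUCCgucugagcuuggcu
Rtl1 site: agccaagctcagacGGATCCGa
No source used here gives the strand setting of the counting, so reads of Rtl1 and of its antisense transcript cannot be told apart. The same holds for Mest and Copg2, which share 912 exon bases on opposite strands, for Gnas and Nespas, and for Igf2, of whose exon bases 64.55% are shared with Gm49394 on the same strand or with Igf2os on the other. Gm49394 averaged 33.3 counts in mutants and 15.1 in controls, and Igf2os 1838.5 ± 393 in mutants and 1727 ± 118 in controls.

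On proximal chromosome 6, Mest, a hydrolase-like protein of embryonic mesoderm, had 50689, 34617, 46891 and 48052.5 counts in mutants, against 49095, 47973, 42489 and 44553 in controls. Mutant 2 alone lay below the controls. The log2 difference was -0.04 (SE 0.107). Asb4, which marks substrates for ubiquitination, had 2442, 1453, 2228 and 2775 counts in mutants, against 2953, 2606, 1757.5 and 2552 in controls, with mutant 2 again lowest. Its log2 difference was -0.16 (SE 0.192), and 0.03 without mutant replicate 2. Peg10, a retrotransposon-derived gene of the placenta, averaged 15737 ± 2488 counts in mutants and 16259 ± 1089 in controls. Sgce, a sarcoglycan, averaged 1485 ± 91.9 in mutants and 1494 ± 98.8 in controls, and Copg2, a coat protein of Golgi vesicles, 1429 ± 56.4 in mutants and 1391 ± 87.3 in controls.

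A few members had higher means in mutants. Nnat, a small membrane protein best known from the developing nervous system, had 15093, 20888, 18463 and 15671 counts in mutants, against 15109.7, 14151, 15670.4 and 15976 in controls. Mutants 2 and 3 lay above every control and the other 2 lay among them. The means were 17529 ± 2680 in mutants and 15227 ± 802 in controls, a log2 difference of 0.19 (SE 0.0932, adjusted p = 0.767 by limma), and 0.10 without mutant replicate 2. Snrpn, a spliceosome protein whose human counterpart lies in the Prader-Willi syndrome region, had 241, 389.9, 235 and 243 counts in mutants, against 266, 209.9, 195 and 220.0 in controls, so that mutant 2 stood apart. Its log2 difference was 0.29 (SE 0.196), and 0.12 without mutant replicate 2. Other genes share 34.14% of Snrpn exon bases, among them Snurf on the same strand, which stood at 0 in every library. How shared reads were assigned is not given in the sources used, which limits the level of Snrpn. Summed neuron markers were 5219, 8764, 4556 and 4600.1 counts in mutants, against 3829.9 to 6495 in controls, so mutant 2 was also the highest library for these, and their part in the values of Nnat and Snrpn was not tested. The other genes of the Snrpn domain, Ndn, Magel2, Mkrn3 and Peg12, had log2 differences of -0.18 to 0.05.

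The remaining members were close to even. Gnas, the stimulatory G protein alpha subunit, averaged 69328 ± 4849 counts in mutants and 69018.5 ± 2888 in controls (log2 difference 0.0048, SE 0.0666). Grb10, an adaptor that dampens insulin and IGF receptor signalling, averaged 52557 ± 5745 in mutants and 54900.4 ± 2984 in controls (log2 difference -0.07, SE 0.0808). Plagl1, a zinc finger regulator of other imprinted genes, averaged 20889 ± 2545 in mutants and 20406 ± 1322 in controls (log2 difference 0.03, SE 0.0838). Impact, a regulator of translation, and Nespas, antisense to Gnas, had log2 differences of -0.06 and -0.10. By parental origin, 13 of 20 paternally expressed members and 10 of 13 maternally expressed members had lower means in mutants, and Gnas, whose origin depends on tissue and transcript, was in neither list. The median log2 difference was -0.04 for the paternal and -0.07 for the maternal list, and the difference between the lists was not tested.

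**Figure D4:**
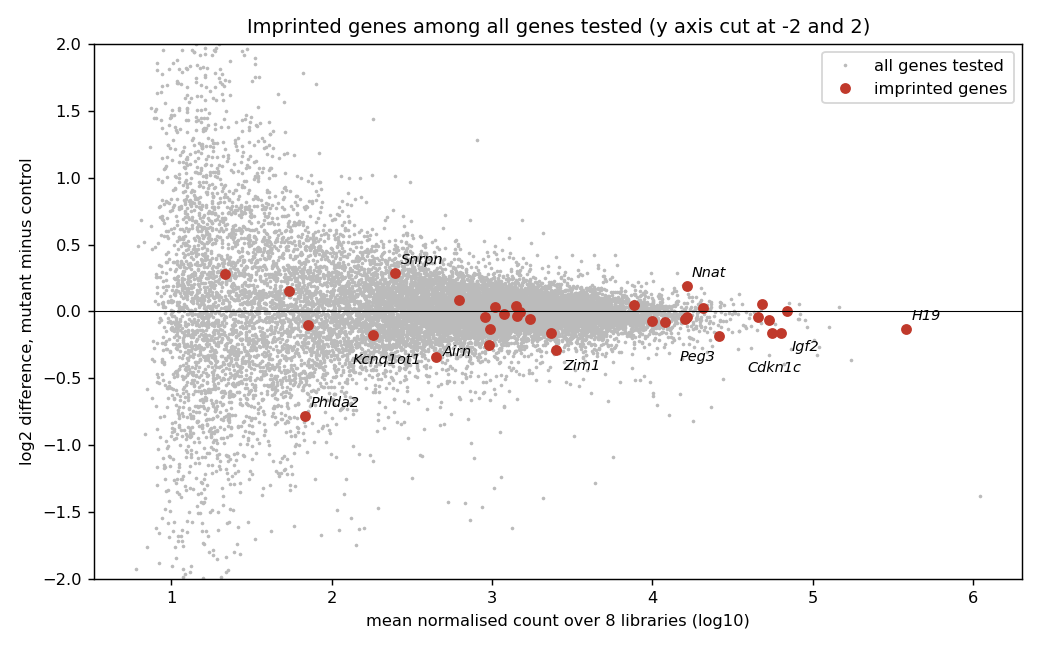
Log2 difference, mutant minus control, against mean normalised count (log10 axis) for all 16647 genes tested in grey and the 34 imprinted genes in red. The imprinted genes lie inside the grey cloud at their level, with H19, second in counts, at a log2 difference of -0.13.

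Most of the 34 imprinted genes scattered more among the mutant libraries than among the controls. For the 23 members with a mean of at least 1000 counts, the median coefficient of variation was 12.2% in mutants and 6.37% in controls, while for all 6726 genes at that level it was 6.66% in mutants and 6.94% in controls. The mutant value was the higher of the pair for 19 of the 23 members, beside 49.4% of all genes at that level. The scatter was not tested. Mutant 3 was the highest of the 4 mutants for 18 of 34 members, and mutant 4 was the lowest for 14 and the highest for 1. The same order was not counted over all genes, so it cannot be called particular to the members. Magel2, a regulator of protein sorting, was the widest of the 23 at 1085, 1126, 1426 and 663.5 counts in mutants, against 989.2, 1045.5, 1241 and 824 in controls.

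Skeletal muscle markers were also highest in mutant 3 and lowest in mutant 4. The summed counts of 12 muscle markers were 33096, 46503, 66225 and 17467 in mutants, against 33806 to 43466 in controls, and the myogenic factor Myod1 stood at 1020.1, 1904, 2556 and 633 in mutants, against 975 to 1393 in controls. Peg3, Zim1, Usp29, Rian, Igf2r and Magel2 were picked after their values were seen. They likewise had mutant 3 as the highest and mutant 4 as the lowest of the mutants. In controls, the muscle sum was highest in control 3, at 43466. Control 3 was the highest control for Igf2r and Magel2, at 14832 and 1241 counts. It was the lowest control for Zim1 and Usp29, at 2384 and 905, and lay between other controls for Peg3 and Rian. Osteoblast markers summed to 21947, 8218, 12421 and 24645 in mutants, so mutant 2, the lowest library for Mest, Asb4 and Cdkn1c, was also the lowest for these. Epithelial markers were highest in mutant 2, at 71671 counts, against 39933 to 48279 in the other 3 mutants and 36862 to 50179 in controls. The part of these cell types in the values of the imprinted genes was not tested.

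**Figure D5:**
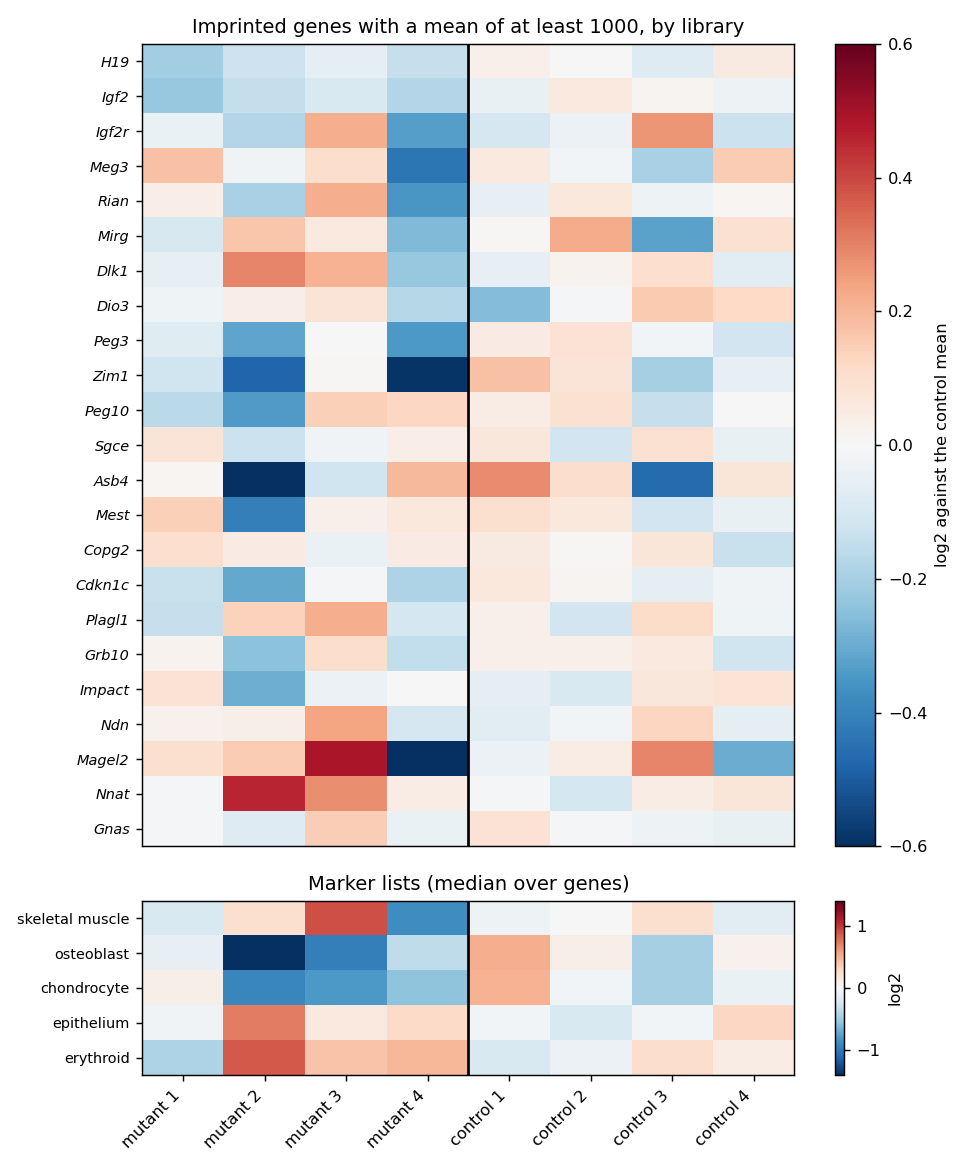
Upper panel, log2 value against the control mean for the 23 imprinted genes with a mean of at least 1000 counts, 1 column per library with mutants left of the line; lower panel, the median over each marker list on the same kind of scale with a wider colour range. Mutant columns are more strongly coloured than control columns, and mutant 4 is low for Magel2, Zim1 and Meg3 as it is for skeletal muscle markers.

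Genes taken as imprinted outside the 34 were looked at for comparison. Of 64 such genes asked for, 62 were in the table and 50 were tested. Whether they are imprinted in the palate was not tested. The log2 difference was below 0 for 27 and above 0 for 23. By limma, 0 passed the adjusted test and 4 of the 50 had an unadjusted p under 0.05, beside 6.57% of all genes. Pon2, a paraoxonase, averaged 1184 ± 129 counts in mutants and 961.5 ± 97.6 in controls, a log2 difference of 0.30 (SE 0.102). Slc38a4, an amino acid transporter, averaged 1659 ± 200.2 in mutants and 1975 ± 252 in controls (log2 difference -0.25, SE 0.107). Dlx5, also a factor of bone-forming cells, averaged 787 ± 76.4 in mutants and 1165 ± 359.7 in controls (log2 difference -0.52, SE 0.186), beside the osteoblast sums above. Ano1, a chloride channel, averaged 378 ± 116 in mutants and 551 ± 142 in controls (log2 difference -0.56, SE 0.238).

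Genes that set or keep imprints did not pass the test either. Of 20 such genes, 16 were tested and 0 were called, with log2 differences of -0.06 to 0.16. By limma, 0 of the 16 had an unadjusted p under 0.05, beside 6.57% of all genes. Uhrf1, which brings the maintenance methyltransferase to newly copied DNA, averaged 4479 ± 322 counts in mutants and 4007 ± 411 in controls (log2 difference 0.16, SE 0.0796). Trim28, the co-repressor that ZFP57 recruits to imprinted control regions, averaged 18392 ± 574 in mutants and 17115 ± 983 in controls (log2 difference 0.10, SE 0.0550). Zfp57 itself averaged 1611.5 ± 90.9 in mutants and 1685 ± 106 in controls (log2 difference -0.06, SE 0.0722).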

How the data were processed

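Gene counts from RNA-seq of 8 palatal shelf libraries were analysed, 4 mutant and 4 control, grouped by the genotype in the labels. Per the submitters' processing notes, STAR 2.7.2 and DESeq2 were used; the counting tool, its strand setting and the genome build were not given in the sources used. The signal values deposited by the authors are normalised counts, gene reads divided by 1 size factor per library. Whole reads were recovered from their steps, and 100% of the values from 50 to 5000 came out whole to within 0.06 reads. The size factors were 0.939 to 1.06. The log2 values deposited by the authors are variance-stabilised and served in 1 alternative. The percent values deposited by the authors give the GC content of each gene and were not used. Gene positions equalled those of GENCODE M21 (GRCm38) for 95.2% of IDs found in both, and exon lengths came from it.

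Genes with at least 10 normalised counts in at least 4 libraries entered limma 3.58.1 under R 4.3.3, fitted to log2(normalised count + 1) with genotype as the only term and a trend of variance on level. Tests were two-sided with Benjamini-Hochberg adjustment over 16647 genes at 0.05. Neighbour pairs were tested by exact permutation of libraries. Count tests on recovered reads used edgeR 4.0.16 and DESeq2 1.42.0. Fold differences are on the log2(count + 1) scale. At this depth 0 reads allow up to 3 reads a library, which covers counting error only. Promoter and microRNA sequences are from RefSeq (GRCm38.p6). The tests were tried on simulated data.

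Every member could be named. Values in each library are given for the 12 members with the smallest limma p and the 5 highest per exon length. They are also given for H19, Igf2, Meg3, Dlk1, Cdkn1c and Peg3. Of the other lists, the genes with the smallest p are given. Zfp57, Magel2, Gm42418 and genes that overlap members were added after their values were seen. So were the markers Prrx1, Myod1, Bglap, Ibsp, Pecam1, Emcn and Foxd3. The members and lists were chosen with earlier results of these data known. Alternatives tried were other scalings, both count tests, the stabilised values, leaving out each library, a filter at a mean of 50, none at all, pseudocounts of 0.5 and 8, and a replicate block by the number that opens each title. Scaling to total reads, with and without Gm42418, was chosen after seeing the data. The meaning of that number is not labelled. Exact tests and figures used Python 3.11.15 (matplotlib 3.10.9).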

Additional observations from a re-analysis of the deposited data

Results flagged for a closer look

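Among the 68 groups of 4 libraries (34 genes in mutants and in controls), 3 held a library far from the other 3, and chance alone gives about 1 in 20. Snrpn had 389.9 normalised counts in mutant replicate 2, while the other 3 mutants lay at 235 to 243. Grb10 had 50488.7 counts in control replicate 4, below the other controls at 55999.7 to 57086. Nespas had 131 counts in control replicate 1, above the other controls at 51.1 to 62.6. None of these 3 genes passed the limma test with all libraries, and the cause of the single values was not tested.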

How the results depend on the processing

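No imprinted gene passed the adjusted threshold under any of the 20 alternatives, in 679 values over the 34 genes. The direction held under all of them for 13 genes, among them Igf2, H19, Cdkn1c, Airn, Zim1, Peg3, Kcnq1ot1, Nnat and Snrpn, and turned in at least 1 for the other 21. Igf2 ranged from -0.18 to -0.084 on the log2 scale, with adjusted p from 0.203 to 0.975. The count of genes called over all genes was 4, and 31 with DESeq2; leaving out single libraries gave 0 to 11, with 0 without mutant 3, control 2 or control 4, 8 without mutant 4 and 11 without control 3. The first title number as a replicate block gave 6 and called no member. Between mutants and controls, deviations were correlated at -0.00774 to 0.1 for libraries with the same number. For libraries with different numbers the range was -0.0851 to 0.0757. Libraries of the same group were not compared, so these values cannot decide whether the number groups the libraries. With all libraries the members without overlap numbered 1, beside 1.91% of all genes with mutants lower and 1.86% with mutants higher. Leaving out single libraries gave 1 to 3 (2 without mutant 1, mutant 2 or control 1, and 3 without mutant 3 or control 3). With fewer libraries, groups overlap less easily, and the share of all genes was not counted there. Those counts therefore cannot be read as a result about the members. The count of neighbour pairs past the threshold was 0, and 1 (Mest with Copg2, r = 0.98) without the 2 libraries farthest from the median.

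Log2 differences that turned, given as the range over left-out libraries, were Igf2r -0.18 to 0.0056, Meg3 -0.12 to 0.087, Rian -0.17 to 0.022, Mirg -0.14 to 0.045, Dlk1 -0.023 to 0.15, Rtl1 -0.013 to 0.16, Dio3 -0.11 to 0.032, Peg10 -0.13 to 0.036, Sgce -0.046 to 0.032, Asb4 -0.32 to 0.028, Mest -0.10 to 0.078, Copg2 -0.0043 to 0.066, Ascl2 -0.012 to 0.46, Plagl1 -0.035 to 0.083, Ndn -0.015 to 0.099, Magel2 -0.12 to 0.25, Peg12 -0.11 to 0.0085, Impact -0.11 to 0.017, Gnas -0.042 to 0.034 and Nespas -0.31 to 0.20. Under the replicate block, 15 members moved by over 1.5 times with the same sign, among them Igf2r at -0.25, Mkrn3 at -0.36, Rian at -0.17, Meg3 at -0.13, Dio3 at -0.16 and H19 at -0.086. Those that turned were Mirg 0.0065, Dlk1 -0.026, Rtl1 -0.014, Peg10 0.057, Asb4 0.070, Ndn -0.032, Magel2 -0.23 and Nespas 0.14. Scaled to total reads, Meg3 was 0.033, Rian 0.0048, Mirg 0.043, Dio3 0.056, Peg10 0.018, Sgce 0.068, Mest 0.033, Grb10 0.0083, Peg12 0.036 and Impact 0.016, and with Gm42418 left out of the totals Dio3 was 0.011 and Sgce 0.023. Correlations that turned without the 2 farthest libraries were Meg3 with Dlk1 at -0.52, Peg10 with Sgce at -0.49 and Ndn with Snrpn at 0.46, and on deviations Cdkn1c with Kcnq1ot1 at -0.69. The cause of these changes was not tested. With 4 libraries a group, differences as small as most of these lie within the standard error.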
